A study of Mus musculus with 24 samples.

Results

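Pirfenidone, an oral antifibrotic drug, was compared with no drug in lungs of male C57BL/6 mice that had breathed diesel exhaust. The members are the 3 libraries of the drug group, DE+PFD, and the 3 of the exposed group without it, DE, out of 24 libraries in 8 groups of 3. The other groups are healthy controls (C), healthy mice given remote ischemic conditioning (RIC), exposed mice conditioned before (RIC+DE) or during (DE+RIC) the exposure, and both of these with pirfenidone (RIC+DE+PFD and DE+PFD+RIC). All mice were 8 weeks old at the start, and 20 weeks old per the labels. Conditioning was given as 3 cycles of 5 min on 3 days per week for 4 weeks. DE and DE+PFD mice both inhaled exhaust for 30 min per day on 5 days per week for about 8 weeks, which is the study's model of pulmonary fibrosis. DE+PFD mice also received pirfenidone at 300 mg/kg per day by mouth on 6 days per week, suspended in carboxymethylcellulose at 0.5%. No label names a group that received carboxymethylcellulose alone, so pirfenidone and its vehicle cannot be told apart. The design text describes mice divided at random into the groups, and the p-values measure only the spread between these libraries.

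Pirfenidone slows the growth of scar tissue in the lung and is used in idiopathic pulmonary fibrosis, where it lowers signalling of transforming growth factor beta and the making of collagen by fibroblasts. Inhaled exhaust particles carry aromatic hydrocarbons, which switch on Cyp1a1 and its relatives through the aryl hydrocarbon receptor, and they draw inflammatory cells into the lung. Long exposures can also lead to clusters of lymphocytes around airways and vessels, built like small lymph nodes with chemokine-making stroma, high endothelial venules and B and T cell zones. Interferon gamma, made by T and NK cells, induces 2 large families of GTPases, the guanylate-binding proteins (Gbp) and the immunity-related GTPases (Irg), that guard cells against intracellular microbes.

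The 3 DE+PFD libraries held 14356904, 3906807 and 9446217 counts and the 3 DE libraries 8885406, 6920161 and 5700391, and DE+PFD 2 was the shallowest of the 24. DE+PFD 1 carries a date in March and the other 5 a date in October, so all 3 DE libraries come from 1 date group and the March date occurs in DE+PFD alone. The labels do not say what step the date marks. The lung markers were high in all 6 libraries, with the surfactant gene Sftpc at 17810 to 30860 CPM (read counts scaled to library size with TMM factors) and the club cell gene Scgb1a1 at 27750 to 55920 CPM. DE 1 stood apart from the other libraries on the second principal component, at 63.8. RIC+DE+PFD 1 stood apart on the first, at 120.9, and entered the fit below through the shared estimate of spread and batch.

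No gene passed the threshold between DE+PFD and DE. edgeR's quasi-likelihood test over all 24 libraries, with terms for group and date, called 0 of 17490 genes at an adjusted p under 0.05 (a percent called of 0). At an unadjusted p under 0.05 stood 497 genes, or 2.84% of those tested, with 215 higher in DE+PFD (1.23%) and 282 lower (1.61%). DESeq2 called 15 genes, 3 higher and 12 lower, and limma with quality weights called 0. Of the 15, 5 were among the 17490 genes that passed the low-count filter. The median log2 change over all genes was -0.01. The genes with the smallest p formed 2 sets. The 10 named ones lower in DE+PFD are mostly known from lymphoid tissue, and 6 of the 10 named ones higher are induced by interferon. Without the filter on low counts edgeR called 180 genes, 56 higher and 124 lower.

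**Figure D1:**
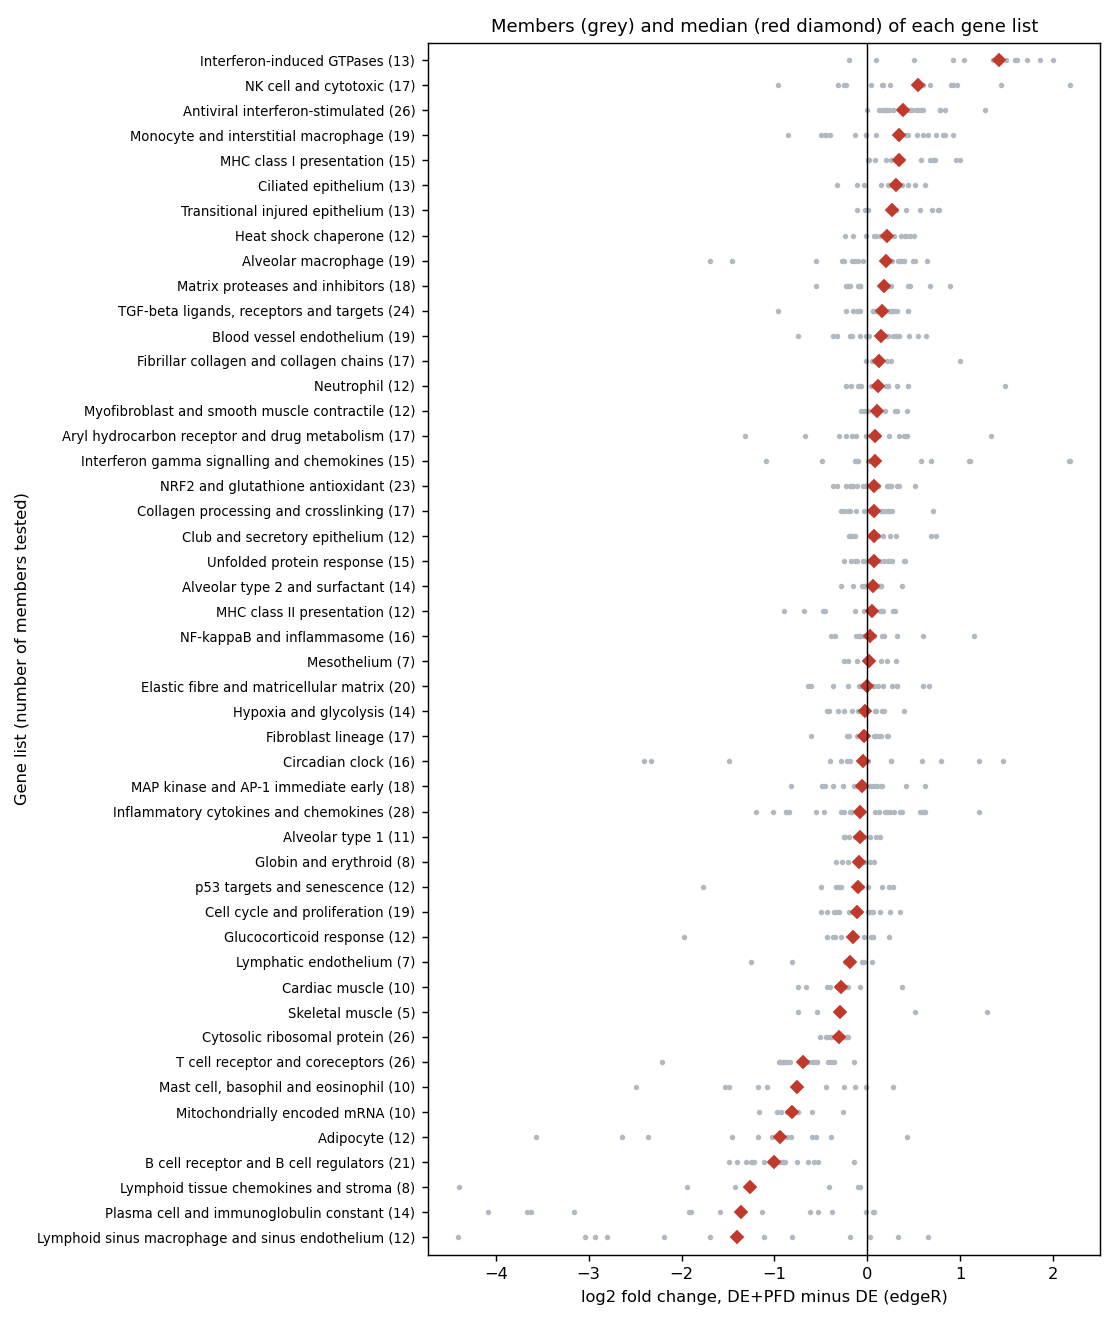
Log2 fold change of DE+PFD against DE (x axis, edgeR) for each gene list with at least 5 tested members (y axis), with grey points for members and a red diamond for the list's median. The lists of sinus, plasma cell, lymphoid chemokine and B cell genes sit lowest, with medians down to -1.40, and the interferon-induced GTPases sit highest, at 1.42.

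The 10 named genes lower in DE+PFD were Cd209b, Pla2g2d, Ccl19, Timd4, Stab2, Dnase1l3, Il22ra2, Izumo1r, Ighg1 and Foxp3, and most of them are known from macrophages, stroma and lymphocytes of lymph node and spleen. Cd209b, a lectin by which sinus and marginal zone macrophages capture microbes, stood at 80.0, 1.34 and 30.6 CPM in DE 1, 2 and 3 and at 2.27, 0.535 and 2.07 CPM in DE+PFD 1, 2 and 3. DE 1 and DE 3 were high, and DE 2 lay within the DE+PFD range. Its log2 change was -4.40 ± 0.85 (SE, n = 3 and 3, edgeR adjusted p = 0.420). Healthy lungs held 1.12, 0.967 and 1.62 CPM, so DE 2 and all 3 DE+PFD libraries were at the level of C. Pla2g2d, a secreted phospholipase of lymphoid dendritic cells and macrophages, stood at 54.0, 4.48 and 28.6 CPM in DE and 4.24, 2.41 and 3.15 CPM in DE+PFD. The groups did not overlap, although DE 2 was close to DE+PFD 1, and the log2 change was -3.04 ± 0.59 (edgeR adjusted p = 0.420). Timd4, a receptor by which resident macrophages take up dying cells, stood at 28.0, 2.09 and 17.4 CPM in DE and 2.19, 2.41 and 1.96 CPM in DE+PFD, with a log2 change of -2.93 ± 0.62 (edgeR adjusted p = 0.609). As with Cd209b, DE 1 and DE 3 were high and DE 2 lay within the DE+PFD range. In bulk tissue, fewer cells of a type and less RNA per cell cannot be told apart.

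Ccl19, a chemokine that T zone stroma makes to draw T cells and dendritic cells, stood at 24.3, 1.19 and 13.2 CPM in DE and 0.605, 0.535 and 0.435 CPM in DE+PFD. Its log2 change was -4.40 ± 0.93 (edgeR adjusted p = 0.609), and here DE 2 also lay above all 3 DE+PFD libraries. Stab2, a hyaluronan receptor of sinus endothelium, stood at 24.2, 2.84 and 9.32 CPM in DE and 1.82, 2.41 and 2.94 CPM in DE+PFD, a log2 change of -2.19 ± 0.52. Dnase1l3, a secreted enzyme of dendritic cells and macrophages that digests DNA, stood at 48.8, 2.09 and 16.0 CPM in DE and 2.80, 1.34 and 2.83 CPM in DE+PFD, a log2 change of -3.17 ± 0.75. In both, DE 2 was among the DE+PFD values. Il22ra2, the soluble receptor that neutralises interleukin 22, stood at 8.65, 0.896 and 9.49 CPM in DE and 0.757, 1.07 and 1.41 CPM in DE+PFD, a log2 change of -2.62 ± 0.64. Izumo1r, a folate receptor family protein of regulatory T cells, stood at 13.9, 2.39 and 5.45 CPM in DE and 1.44, 1.34 and 1.20 CPM in DE+PFD, a log2 change of -2.41 ± 0.62. Foxp3, the transcription factor of regulatory T cells, stood at 6.13, 1.94 and 2.81 CPM in DE and 0.908, 0.535 and 0.653 CPM in DE+PFD, a log2 change of -2.21 ± 0.58. For Izumo1r and Foxp3 all 3 DE libraries lay above all 3 DE+PFD libraries, DE 1 highest. Ighg1, the constant region of an IgG subclass, stood at 219.9, 10.0 and 21.4 CPM in DE and 6.05, 3.75 and 5.00 CPM in DE+PFD, a log2 change of -3.67 ± 0.95. The edgeR adjusted p was 0.9998 for each of the 6 genes Stab2, Dnase1l3, Il22ra2, Izumo1r, Foxp3 and Ighg1. DE 1 carried much of the size of several changes: without it the log2 change was -1.17 for Stab2, -1.85 for Dnase1l3, -1.50 for Izumo1r and -1.25 for Ighg1. Without DE 2, edgeR called 13 genes, all lower in DE+PFD, among them Cd209b, Pla2g2d, Timd4, Ccl19, Stab2, Il22ra2 and Dnase1l3.

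**Figure D2:**
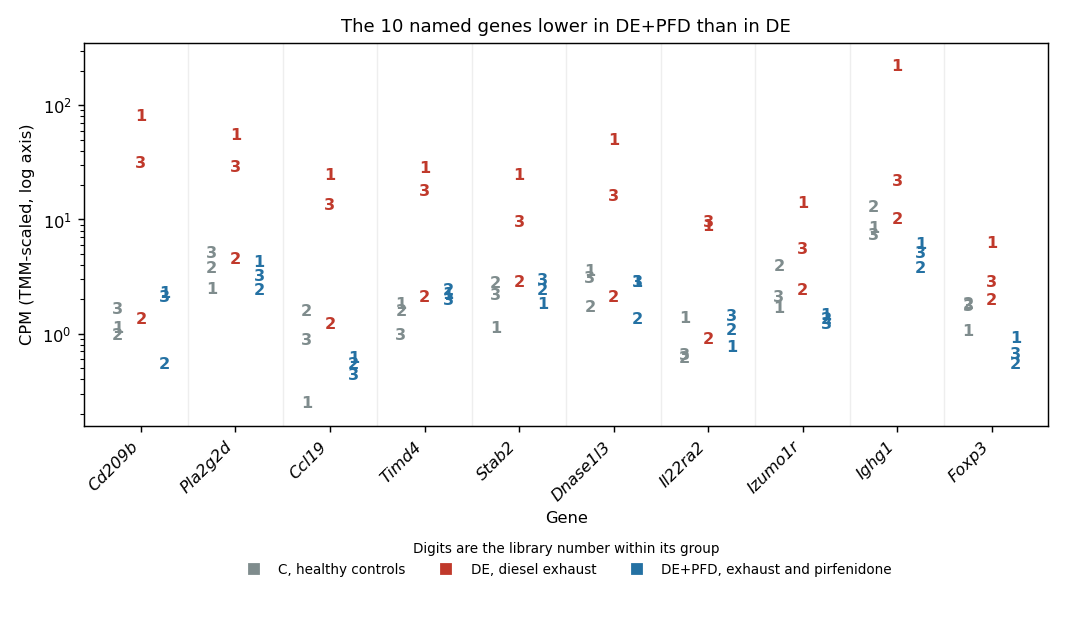
CPM on a log axis of the 10 named genes lower in DE+PFD, with each digit a library's number in its group (grey C, red DE, blue DE+PFD). DE 1 and DE 3 stand well above the rest for the first 7 genes, for example at 80.0 and 30.6 CPM for Cd209b, while DE 2 lies near DE+PFD and C.

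The other 18 libraries of the series place these levels. Cd209b ranged from 0.967 to 2.59 CPM there, Pla2g2d from 1.90 to 5.11, Ccl19 from 0.248 to 2.18 and Timd4 from 0.974 to 3.34. None of the 18 reached the lower of DE 1 and DE 3 for any of these 4 genes. The next 3 genes did not pass the low-count filter and were chosen after their values were seen. Glycam1, a mucin of high endothelial venules, the vessels by which lymphocytes enter lymph nodes, had 358, 2 and 96 counts in DE 1, 2 and 3 and 0, 0 and 1 in DE+PFD 1, 2 and 3. A count of 0 allows up to 0.227 CPM in DE+PFD 1 and 0.803 CPM in DE+PFD 2, at 3 counts per library. The 18 libraries outside both groups held at most 0.214 CPM of Glycam1, against 39.2 CPM in DE 1 and 16.9 CPM in DE 3. Madcam1, the vascular addressin for gut-homing lymphocytes, had 11, 0 and 7 counts in DE and 0 in each DE+PFD library. Tnfsf11, the cytokine RANKL needed to form lymph nodes, had 27, 1 and 15 counts in DE and 5, 1 and 1 in DE+PFD. In Glycam1 and Madcam1 DE 1 and DE 3 held nearly all the counts, while Tnfsf11 was also counted in most of the other 18 libraries, at up to 0.846 CPM.

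The lists behind these genes lay below 0 as groups. These lists, like all lists here, were chosen with earlier results of these data known, and they hold several of the genes named above. The counts below describe the lists and are not independent support. Of the lymphoid chemokine and stroma list, 8 of 13 genes were tested and all 8 were below 0, where 50.9% of all genes were. Of these, 5 stood at an unadjusted p under 0.05 (1.61% of all genes did in this direction), 4 did not overlap between the groups (5.28% of all genes), and the median log2 change was -1.26 against -0.01 over all genes. Ccl21a, the lymphatic chemokine that shares its receptor with Ccl19, stood at 333, 131 and 199 CPM in DE and 92.0, 82.7 and 115 CPM in DE+PFD, a log2 change of -1.25 ± 0.34. All 3 DE libraries were higher than all 3 DE+PFD libraries. Cxcl13, which draws B cells into follicles, stood at 34.3, 5.08 and 15.5 CPM in DE and 10.1, 9.36 and 5.55 CPM in DE+PFD, a log2 change of -1.43 ± 0.51, with DE 2 below every DE+PFD library. The lymphotoxin genes Lta and Ltb, whose products keep lymphoid stroma in place, had log2 changes of -1.94 ± 0.60 and -1.27 ± 0.41. Il7 and Chst4 were close to 0, at -0.10 ± 0.35 and -0.07 ± 0.40. Of the sinus macrophage and sinus endothelium list, 9 of 12 were below 0, 6 of them at an unadjusted p under 0.05 and 1 without overlap, with a median of -1.40. Their summed level was 679, 415 and 593 CPM in DE and 688, 310.1 and 346 CPM in DE+PFD, so DE+PFD 1 was the highest of the 6, with Lyve1 (a lymphatic marker, chosen after its value was seen) at 436 CPM there. The 3 above 0 were Mrc1, Cd163 and Vcam1, which many lung macrophages and vessels also express. Marco, a scavenger receptor of marginal zone and some alveolar macrophages, stood at 198, 24.0 and 73.0 CPM in DE and 50.2, 27.8 and 28.9 CPM in DE+PFD, a log2 change of -1.69 ± 0.58, with DE 2 below every DE+PFD library. Of the 7 lymphatic endothelium genes 6 were below 0 with a median of -0.18, and Ccl21a was the 1 at an unadjusted p under 0.05. Without DE 1 the medians were -0.58 for the chemokine list and -0.61 for the sinus list.

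Genes of T and B cells lay below 0 as well. All 26 genes of the T cell list were below 0, with a median of -0.69. Of these, 12 were lower at an unadjusted p under 0.05 (1.61% of all genes) and 8 without overlap (5.28% of all genes). Their summed level was 952, 422 and 505 CPM in DE and 318, 419.5 and 338 CPM in DE+PFD, so DE 1 was highest and DE 2 stood beside DE+PFD 2. Trac, the constant region of the T cell receptor alpha chain, stood at 44.2, 16.1 and 24.1 CPM in DE and 11.8, 16.6 and 12.6 CPM in DE+PFD, a log2 change of -0.95 ± 0.31, and DE 2 lay within the DE+PFD range. Cd3g, a signalling chain of the receptor, stood at 33.3, 20.4 and 23.4 CPM in DE and 12.9, 15.0 and 15.4 CPM in DE+PFD, a log2 change of -0.83 ± 0.30, with no overlap. Healthy lungs held 311, 499 and 435 CPM of the T cell list in C 1, 2 and 3, a range that takes in all 3 DE+PFD libraries and DE 2. DE 3 lay just above that range, and DE 1 far above it.

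All 21 B cell genes were below 0 as well, with a median of -0.999. Of these, 10 were lower at an unadjusted p under 0.05 (1.61% of all genes) and 14 without overlap (5.28% of all genes). Ms4a1, which encodes CD20, stood at 61.0, 36.6 and 41.8 CPM in DE and 21.2, 14.2 and 25.4 CPM in DE+PFD, a log2 change of -1.02 ± 0.39. Ighd, the IgD heavy chain of naive B cells, stood at 197, 70.6 and 78.0 CPM in DE and 31.3, 27.3 and 53.2 CPM in DE+PFD, a log2 change of -1.30 ± 0.50. In both genes every DE library was above every DE+PFD library. The summed B cell level was 3045, 888 and 1104 CPM in DE, 659.5, 617.7 and 700.2 CPM in DE+PFD and 653, 1312 and 887 CPM in C, so the DE+PFD libraries lay near or below the lowest control. Of the plasma cell and immunoglobulin list, 12 of 14 tested genes were below 0, with a median of -1.36. Of the 14, 8 were lower at an unadjusted p under 0.05 and 2 without overlap. Ighg2c, an IgG heavy chain, stood at 819, 27.5 and 99.0 CPM in DE and 77.4, 9.36 and 12.1 CPM in DE+PFD, a log2 change of -4.09 ± 1.10, and C 1 held 287 CPM. DE+PFD 1 lay between the DE libraries here. Without DE 1 the log2 change was -1.77 for Ighg2c, -0.68 for Ighd, -0.46 for Trac and -1.05 for Lta. Immunoglobulin constant genes resemble each other, so reads can be split between them. Igkc and Mzb1 are listed at 0 counts in all 6 libraries. The medians without DE 1 were -0.30 for T cells, -0.38 for B cells and -0.25 for plasma cells. Of the members of these 5 lists 0 passed the threshold in edgeR. DESeq2 called Cd209b, Pla2g2d, Timd4, Ccl19 and Glycam1 of these lists, and Dnase1l3 outside them. Its other calls were Gm47230, 1700023F02Rik, Ighv1-11, Gm13180 and genes without a symbol, none of which passed the low-count filter. Their log2 changes were extreme, such as -21.45 for Ighv1-11 and 15.39 for Gm13180. Without the low-count filter edgeR called all 10 named lower genes, and 7 of the 10 named higher ones (all but Pign, Ano9 and Dcdc2a).

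Adipocyte markers were high in DE 1, the library highest in most of the lymphoid genes. The 12 adipocyte genes summed to 3381, 399 and 947 CPM in DE and 1118, 479 and 654 CPM in DE+PFD, with 11 of 12 below 0 and a median of -0.94, which was 0.21 without DE 1. Ucp1, the uncoupling protein of brown fat, stood at 132, 1.34 and 26.5 CPM in DE and 2.95, 0.268 and 5.76 CPM in DE+PFD, and at 0.0620, 0 and 2.60 CPM in C. DE 1 and DE 3, the DE libraries high in lymphoid genes, were also the higher DE libraries in adipocyte genes. DE+PFD 1 exceeded DE 3 in the adipocyte sum, and its Cd209b and Ccl19 were low. In RIC+DE 1 the adipocyte genes summed to 2242 CPM, Cd209b stood at 2.59 CPM and Glycam1 at 0 counts. In the thymus list, 1 of 6 genes (Themis) passed the low-count filter. The cardiac muscle list, known from the walls of pulmonary veins, had 9 of 10 genes below 0 and a median of -0.28. Of the 10, 4 were lower without overlap (5.28% of all genes). The part of adipocyte or muscle RNA in the lymphoid result was not tested.

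Above DE in DE+PFD stood the interferon-induced GTPases. This list was also chosen with earlier results known and holds several of the named higher genes, so its counts are a description. Of 20 on the list 13 were tested, 12 of these were above 0 (49.1% of all genes were), 10 at an unadjusted p under 0.05 (1.23% of all genes in this direction) and 7 without overlap (5.89% of all genes), with a median log2 change of 1.42. Their summed level was 1280, 1686 and 462 CPM in DE+PFD 1, 2 and 3 against 414, 381 and 382 CPM in DE 1, 2 and 3. DE+PFD 1 and 2 were high, and DE+PFD 3 was slightly above DE. None passed the threshold, and the edgeR adjusted p was 0.9998 for each of the genes given next. Without DE+PFD 2 the list's median was 0.88, and with October libraries alone it was 1.40.

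Gbp2, an abundant guanylate-binding protein, stood at 241, 359.6 and 111 CPM in DE+PFD and 82.5, 90.5 and 88.1 CPM in DE, a log2 change of 1.42 ± 0.45. Gbp3 stood at 105, 158 and 42.6 CPM in DE+PFD and 36.7, 38.7 and 31.5 CPM in DE, a log2 change of 1.49 ± 0.47. Gbp7 stood at 149, 162 and 47.2 CPM in DE+PFD and 32.6, 32.8 and 33.9 CPM in DE, a log2 change of 1.72 ± 0.53. In these 3 genes every DE+PFD library lay above every DE library, and the 3 DE libraries were close together. Gbp5, which helps to assemble inflammasomes, stood at 70.5, 97.1 and 15.4 CPM in DE+PFD and 14.9, 12.8 and 13.5 CPM in DE, a log2 change of 2.001 ± 0.71. Among the Irg genes, Irgm2, a regulator of the others, stood at 201, 269 and 65.9 CPM in DE+PFD and 57.7, 53.4 and 56.1 CPM in DE, a log2 change of 1.59 ± 0.51. Tgtp2, an Irg effector, stood at 119.7, 110.5 and 24.4 CPM in DE+PFD and 24.8, 22.4 and 20.2 CPM in DE, a log2 change of 1.61 ± 0.48, and DE+PFD 3 lay within the DE range. The list's Mx genes, which answer to type I interferon, were near 0, at 0.09 ± 0.57 for Mx1 and -0.20 ± 0.28 for Mx2. Gbp4, Gbp6, Gbp9, Gbp10 and Ifi47 are listed at 0 counts in all 6 libraries, and Igtp and Tgtp1 had at most 2 counts in any of them. These genes have close relatives, among which the authors' counting could split or drop reads, so the levels of single members are uncertain.

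**Figure D3:**
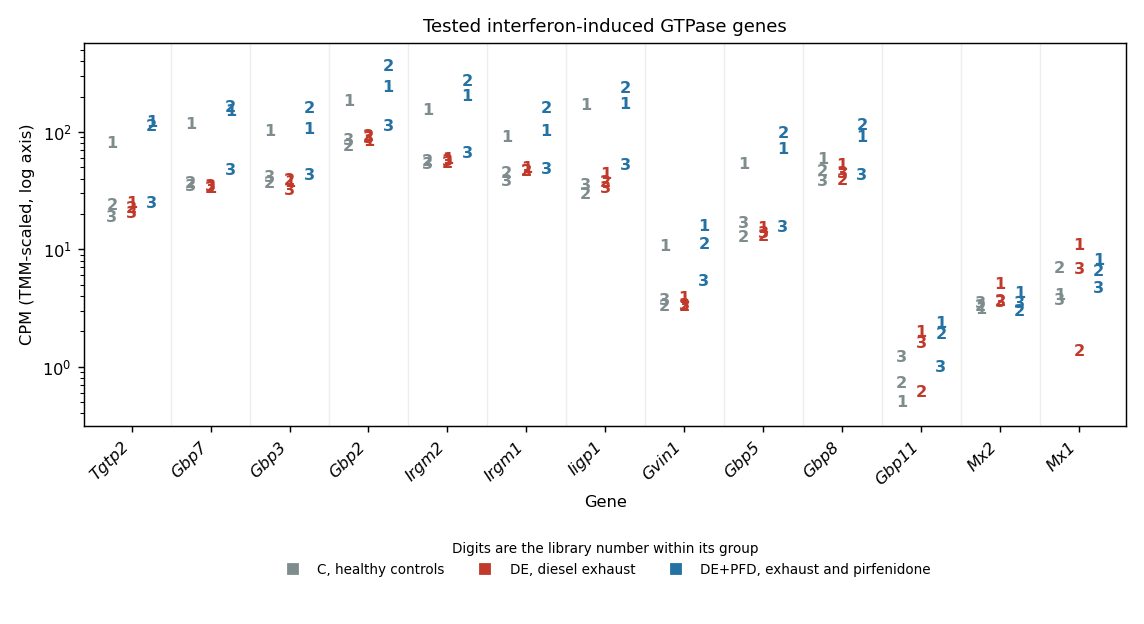
CPM on a log axis of the 13 tested interferon-induced GTPase genes, ordered by p, with each digit a library's number in its group (grey C, red DE, blue DE+PFD). DE+PFD 1 and 2 and C 1 stand above the other libraries in the genes from Tgtp2 to Gbp8, for example at 241, 359.6 and 181 CPM for Gbp2.

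The start regions of the named GTPase genes are shown because the genes shared a direction and carry a known element, the interferon-stimulated response element a target of interferon signalling. RefSeq (GRCm38.p6) gives promoters for 7 of the 13 tested members, in windows from 250 bases before to 50 bases after the start. In lower case, 5′ to 3′ on the gene's strand, with capitals for GAAA, any 2 bases and GAAA again, read on either strand, the windows of the 4 named members are chosen: Gbp2 (chr3:142620413-142620712, plus strand), Gbp3 (chr3:142559794-142560093, plus strand), Gbp7 (chr3:142530086-142530385, plus strand) and Tgtp2 (chr11:49064163-49064462, minus strand).
Gbp2: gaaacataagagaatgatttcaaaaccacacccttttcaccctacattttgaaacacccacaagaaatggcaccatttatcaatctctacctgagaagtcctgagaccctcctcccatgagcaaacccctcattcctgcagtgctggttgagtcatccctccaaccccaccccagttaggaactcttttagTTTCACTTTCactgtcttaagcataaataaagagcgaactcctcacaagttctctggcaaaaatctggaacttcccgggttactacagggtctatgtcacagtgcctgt
Gbp3: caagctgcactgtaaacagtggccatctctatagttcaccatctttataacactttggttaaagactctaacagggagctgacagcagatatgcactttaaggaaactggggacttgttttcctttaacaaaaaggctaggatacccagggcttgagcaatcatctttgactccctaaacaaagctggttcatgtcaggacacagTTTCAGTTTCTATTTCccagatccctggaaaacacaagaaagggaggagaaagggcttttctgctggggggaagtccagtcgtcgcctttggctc
Gbp7: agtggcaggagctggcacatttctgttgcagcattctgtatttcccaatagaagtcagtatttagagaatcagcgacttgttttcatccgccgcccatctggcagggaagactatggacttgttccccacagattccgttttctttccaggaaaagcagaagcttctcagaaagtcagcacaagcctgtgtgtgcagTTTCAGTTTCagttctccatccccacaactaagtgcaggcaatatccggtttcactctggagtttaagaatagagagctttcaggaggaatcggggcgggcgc
Tgtp2: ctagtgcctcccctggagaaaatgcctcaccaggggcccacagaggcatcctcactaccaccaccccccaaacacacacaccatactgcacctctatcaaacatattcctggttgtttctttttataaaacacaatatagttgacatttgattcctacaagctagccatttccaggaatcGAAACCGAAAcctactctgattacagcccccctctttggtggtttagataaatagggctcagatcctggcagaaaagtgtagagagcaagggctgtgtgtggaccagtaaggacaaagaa
The first match began 59 bases before the start in Gbp2, 45 in Gbp3, 53 in Gbp7 and 70 in Tgtp2, and in Gbp3 a second match overlapped the first. All 7 genes held a match in at least 1 window (7 of 8 windows, 87.5%), against 3.44% of all 32851 windows. The windows of the tested antiviral genes held one in 14 of 24 cases (58.3%), and those of the tested collagen genes in 0 of 15. A match describes letters in the window and not binding.

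The other genes with the smallest p among those higher in DE+PFD were Ido1, Wars, Pign, Ano9, Dcdc2a and Klra2. Ido1, the tryptophan-degrading enzyme induced by interferon gamma, stood at 7.72, 11.5 and 1.52 CPM in DE+PFD and 0.986, 1.49 and 2.11 CPM in DE, a log2 change of 2.17 ± 0.62. Wars, the tryptophanyl-tRNA synthetase, also induced by interferon gamma, stood at 311, 546 and 147 CPM in DE+PFD and 144, 153 and 146 CPM in DE, a log2 change of 1.19 ± 0.34. In both, DE+PFD 1 and 2 were high and DE+PFD 3 lay within or next to the DE range. Pign, an enzyme of membrane anchor synthesis, stood at 5.30, 3.21 and 2.07 CPM in DE+PFD and 0.986, 1.64 and 1.05 CPM in DE, a log2 change of 1.29 ± 0.39. Ano9, of the anoctamin family of membrane proteins, stood at 2.04, 4.28 and 2.72 CPM in DE+PFD and 1.31, 1.64 and 1.23 CPM in DE, a log2 change of 1.19 ± 0.37. Dcdc2a, a doublecortin domain protein of cilia, stood at 16.4, 12.6 and 12.1 CPM in DE+PFD and 6.02, 7.17 and 8.09 CPM in DE, a log2 change of 0.86 ± 0.27. Klra2, a Ly49 family receptor, stood at 13.9, 17.7 and 9.46 CPM in DE+PFD and 5.91, 7.17 and 4.39 CPM in DE, a log2 change of 1.29 ± 0.41. In these 4 genes the groups did not overlap. The other 18 libraries ranged from 2.31 to 8.24 CPM for Pign and from 1.38 to 6.21 CPM for Ano9, so all 3 DE libraries lay below those 18 for Pign and DE+PFD lay within or below their range for both genes. For Dcdc2a and Klra2 the 18 ranged from 4.24 to 13.5 and from 4.46 to 13.7 CPM, and the highest DE+PFD library lay above them. The edgeR adjusted p was 0.9998 for each. Without DE+PFD 2 the log2 change was 0.52 for Wars, 0.97 for Tgtp2, 0.88 for Gbp3 and 0.84 for Gbp2.

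Ifng, the gene of interferon gamma itself, stood at 0.454, 4.82 and 0.217 CPM in DE+PFD and 0.548, 0.149 and 0.352 CPM in DE, so DE+PFD 2 was high and the others overlapped. In the interferon gamma signalling list, 10 of 15 tested genes were above 0, and the median of 0.08 was 0.56 without DE 1. Of the 15, 5 were higher at an unadjusted p under 0.05 (1.23% of all genes). The receptor genes Ifngr1 and Ifngr2 and the kinases Jak1 and Jak2 had log2 changes of -0.10 ± 0.16, -0.14 ± 0.18, 0.04 ± 0.30 and 0.08 ± 0.18. Of the induced regulators, Irf1 stood at 235, 307 and 175 CPM in DE+PFD and 162, 159.9 and 168 CPM in DE without overlap, a log2 change of 0.58 ± 0.22. Ciita, the master regulator of MHC class II, and Cd274, which encodes PD-L1, had log2 changes of 1.10 ± 0.47 and 1.10 ± 0.46. The chemokines Cxcl9 and Cxcl10 had log2 changes of -1.09 ± 0.70 and -0.11 ± 0.61, with DE 1 the highest of the 6 libraries for both. Ifng had a log2 change of 2.18 ± 0.90, which was 0.16 without DE+PFD 2.

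Of the 26 antiviral interferon-stimulated genes 25 were above 0, with a median of 0.39. Of the 26, 2 were higher at an unadjusted p under 0.05 (1.23% of all genes). Zbp1, a sensor of unusual nucleic acids, stood at 41.1, 69.3 and 14.5 CPM in DE+PFD and 21.2, 17.3 and 11.8 CPM in DE, a log2 change of 1.27 ± 0.48. Of the MHC class I list all 15 tested genes were above 0, 3 of them at an unadjusted p under 0.05, with a median of 0.34 that was 0.09 without DE+PFD 2. Tap1, which carries peptides into the endoplasmic reticulum, stood at 166, 291 and 70.6 CPM in DE+PFD and 137, 68.2 and 76.8 CPM in DE, a log2 change of 1.00 ± 0.43. Here DE+PFD 2 was highest and DE+PFD 3 was among the lowest. The MHC class II list had a median of 0.05 with 6 of 12 genes above 0. Of the NK and cytotoxic list, 13 of 17 genes were above 0, 4 of them at an unadjusted p under 0.05. Without overlap, 3 were higher (5.89% of all genes) and 1 lower (5.28%). The median of 0.55 was 0.12 without DE+PFD 2 and 0.26 with October libraries alone. The list summed to 233, 348 and 161 CPM in DE+PFD and 270, 190 and 191 CPM in DE. DE+PFD 3 was thus the lowest of these libraries, and DE 1 lay above DE+PFD 1. Klrg1, an inhibitory receptor of mature NK and effector T cells, stood at 5.83, 11.0 and 3.70 CPM in DE+PFD and 2.63, 2.84 and 1.76 CPM in DE, a log2 change of 1.45 ± 0.58. Prf1, which encodes the pore-former perforin, stood at 16.6, 21.1 and 10.3 CPM in DE+PFD and 9.86, 8.96 and 9.49 CPM in DE, a log2 change of 0.90 ± 0.40. Neither gene overlapped between the groups. Without DE+PFD 2 the log2 change was 0.90 for Klrg1, 0.40 for Tap1 and 0.54 for Zbp1. Above 0 for NK cells and below 0 for T cells, the medians of these 2 lymphocyte lists had opposite signs, although the summed NK level overlapped between the groups.

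Other libraries shared the high GTPase level. The list summed to 1013, 373 and 371 CPM in C 1, 2 and 3, so C 1, which has a March date, stood above the other controls. RIC+DE+PFD 3, with an October date, reached 913.7 CPM, and the remaining libraries outside DE and DE+PFD lay between 280.8 and 544.1 CPM. Within October libraries alone the log2 change was 1.40 for Gbp2 and 1.61 for Gbp7. A set of genes chosen after their values were seen, Lars2, Cmss1, Gphn, Camk1d and Cdk8, was also high in DE+PFD 1 and 2. Without the low-count filter edgeR called them higher, together with Mir6236, Gm15564 and Gm19951, at log2 changes of 3.21, 3.01 and 3.19. Whether the reads counted for these genes come from the genes' own transcripts was not tested. Lars2, the mitochondrial leucyl-tRNA synthetase, stood at 6801, 3411 and 291 CPM in DE+PFD and 268, 217 and 249 CPM in DE, a log2 change of 3.59 ± 1.35. RIC+DE+PFD 3 held 2560 CPM of Lars2 at a GTPase sum of 913.7 CPM. RIC 2 held 2720 CPM of Lars2 at a GTPase sum of 366.2 CPM, and C 1 held 228.9 CPM of Lars2 at a GTPase sum of 1013 CPM. The part of these genes in the GTPase values was not tested.

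**Figure D4:**
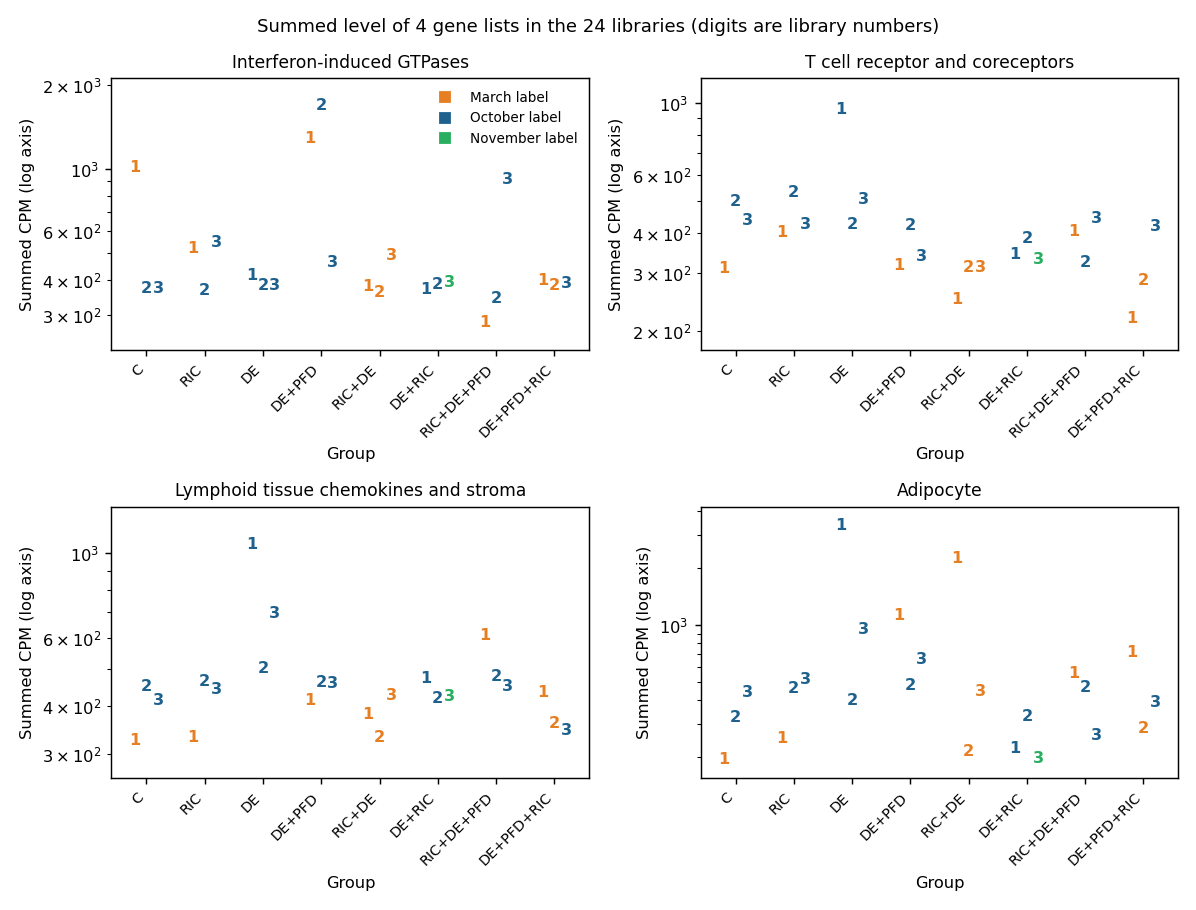
Summed CPM on a log axis of 4 gene lists in the 24 libraries by group, with each digit a library's number and its colour the month of its label (orange March, blue October, green November). DE+PFD 1 and 2, C 1 and RIC+DE+PFD 3 stand out for the GTPases, at 1280, 1686, 1013 and 913.7 CPM, and DE 1 stands highest for the other 3 lists.

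Among the genes of fibrosis, for which the drug is given, 0 passed the threshold between DE+PFD and DE. Of the 17 collagen genes 16 were above 0 (49.1% of all genes were) and 1 was higher at an unadjusted p under 0.05 (1.23% of all genes). The list's median was 0.13, which kept its sign in 16 of 18 alternative settings and was -0.10 in limma with quality weights. Col1a1, which encodes a chain of type I collagen, stood at 199, 338 and 227 CPM in DE+PFD and 313, 180.2 and 351 CPM in DE, a log2 change of -0.02 ± 0.39. Col3a1, the collagen of finer fibrils, stood at 479.7, 498 and 389 CPM in DE+PFD and 496, 271 and 518 CPM in DE, a log2 change of 0.10 ± 0.36. The groups overlapped in both genes. Col8a1, a short-chain collagen of vessel walls, was the one past an unadjusted p of 0.05, at 23.1, 15.0 and 10.0 CPM in DE+PFD and 9.31, 8.36 and 7.03 CPM in DE, a log2 change of 1.00 ± 0.45. Col1a1 stood at 277, 386 and 371 CPM in C and Col3a1 at 362, 456 and 386 CPM, levels that overlap with both exposed groups.

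The other fibrosis readouts had log2 changes of 0.08 ± 0.32 for Fn1 (fibronectin), -0.03 ± 0.37 for Acta2 (smooth muscle actin of myofibroblasts) and 0.06 ± 0.27 for Postn (the matrix protein periostin). Timp1, an inhibitor of matrix proteases, stood at -0.07 ± 0.37. Of the transforming growth factor beta genes, the ligand Tgfb1 stood at 71.4, 113 and 90.0 CPM in DE+PFD and 143, 97.6 and 119 CPM in DE, a log2 change of -0.23 ± 0.20. Its target Ccn2, connective tissue growth factor, stood at 155, 189.7 and 128 CPM in DE+PFD and 123, 173 and 189 CPM in DE, a log2 change of 0.02 ± 0.31. The groups overlapped in both genes. Of the whole list of 24 ligands, receptors and targets, 18 were above 0 (49.1% of all genes were) and 0 at an unadjusted p under 0.05, with a median of 0.15. The lists of collagen processing, elastic and matricellular matrix, contractile genes, fibroblast lineage and matrix proteases held no member at an unadjusted p under 0.05, with medians of 0.07, -0.01, 0.11, -0.03 and 0.18. The standard errors of these readouts, from 0.20 for Tgfb1 to 0.39 for Col1a1, set what was detectable at this depth and number of libraries.

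The inflammatory readouts overlapped between the groups. Il6 stood at 0.303, 1.34 and 0.435 CPM in DE+PFD and 0.986, 0.597 and 1.41 CPM in DE, a log2 change of -0.88 ± 0.73. Il1b, Tnf and the monocyte chemokine Ccl2 had log2 changes of 0.13 ± 0.48, 0.61 ± 0.57 and -0.25 ± 0.48. Ccl2 stood at 2.65, 2.14 and 1.63 CPM in DE+PFD and 3.50, 0.597 and 2.11 CPM in DE, and Tnf at 1.36, 2.41 and 1.63 and 1.75, 0.448 and 1.05 CPM, levels at which counts are few. The change of Il6 ran from -1.62 without DE+PFD 2 to -0.36 without DE+PFD 1. Of 28 tested cytokine and chemokine genes 13 were above 0 and 15 below. At an unadjusted p under 0.05 stood 2 of them, both lower in DE+PFD (1.61% of all genes were). They were the monocyte chemokine Ccl8, at 5.90, 5.89 and 5.55 CPM in DE+PFD and 17.9, 4.03 and 12.8 CPM in DE, and the eosinophil chemokine Ccl11, at 7.11, 2.14 and 5.76 CPM and 9.75, 8.21 and 6.33 CPM. The neutrophil list had a median of 0.12. Of the 19 alveolar macrophage genes 5 were higher in DE+PFD without overlap (5.89% of all genes were), with a list median of 0.21. Of the 19, 0 were higher at an unadjusted p under 0.05 and 1, Marco, was lower. Of the 5, Fabp5, a fatty acid carrier, stood at 203, 176 and 211 CPM in DE+PFD and 126, 137 and 149.8 CPM in DE, a log2 change of 0.40 ± 0.42. The NF-kappaB and inflammasome list had a median of 0.03, and the monocyte and interstitial macrophage list 0.34. Fcgr1, the high-affinity IgG receptor of that last list, stood at 13.5, 9.10 and 6.85 CPM in DE+PFD and 6.35, 4.18 and 4.22 CPM in DE without overlap, a log2 change of 0.93 ± 0.34.

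Cyp1a1, the aryl hydrocarbon receptor target most used as a sign of exhaust hydrocarbons, stood at 294, 10.7 and 4.68 CPM in DE+PFD and 8.43, 7.76 and 8.61 CPM in DE. DE+PFD 1 alone was high. The healthy controls held 153, 7.13 and 6.71 CPM, so C 1, also a March library, was high and the 3 exposed DE libraries were close to C 2 and C 3. Of the 8 March libraries outside DE and DE+PFD, C 1 and RIC+DE 3, at 137 CPM, were high and the other 6 stood between 1.16 and 8.63 CPM. The log2 change was 1.33 ± 1.21, and with October libraries alone it was -0.20. Cyp1b1, a second target, stood at 25.2, 7.49 and 10.4 CPM in DE+PFD and 25.9, 11.3 and 15.1 CPM in DE, a log2 change of -0.67 ± 0.39. Nqo1, a quinone reductase, had a log2 change of 0.35 ± 0.47 and was high in DE+PFD 1, at 30.5 CPM, and C 1, at 31.3 CPM. Hmox1, the heme-degrading enzyme, had a log2 change of -0.18 ± 0.24. The list of NRF2 and glutathione genes had a median of 0.07, with 12 of 23 above 0.

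**Figure D5:**
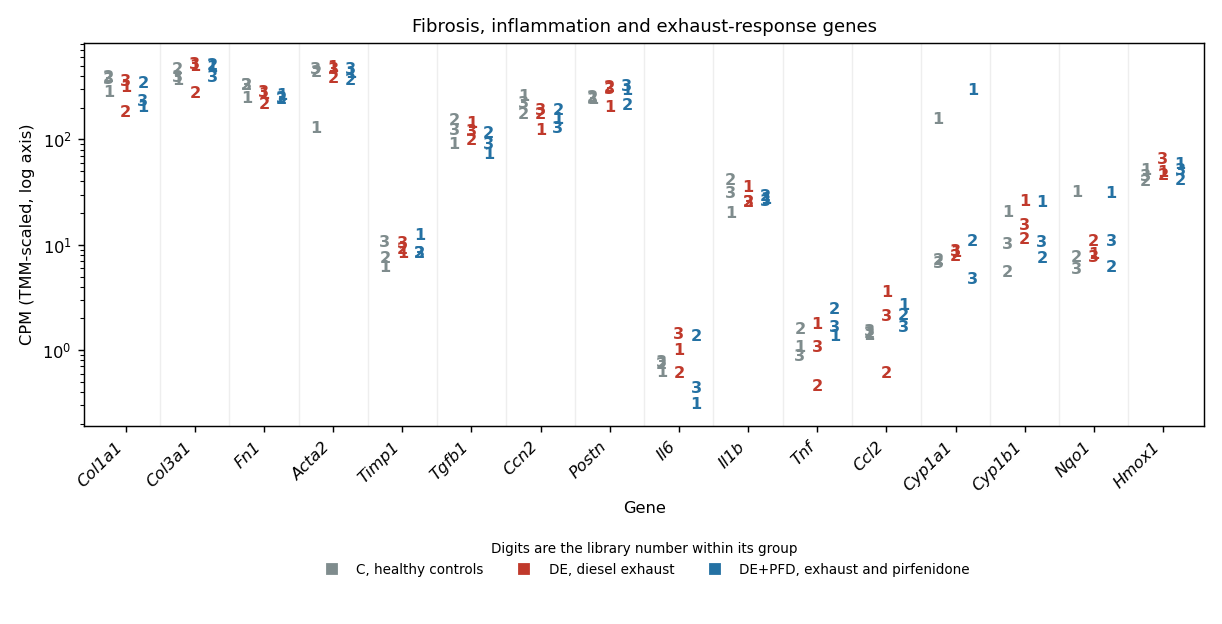
CPM on a log axis of the readout genes of fibrosis, inflammation and the exhaust response, with each digit a library's number in its group (grey C, red DE, blue DE+PFD). Col1a1 and Col3a1 overlap between the groups, with Col1a1 from 180.2 to 351 CPM in DE, and Cyp1a1 is high in DE+PFD 1 and C 1, at 294 and 153 CPM.

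Epithelial and vascular lists stayed near 0, with medians of 0.06 for alveolar type 2 cells, -0.08 for type 1 cells, 0.07 for club cells, 0.31 for ciliated cells and 0.15 for blood vessels, and no member at an unadjusted p under 0.05. The transitional epithelium list, for cells between injury and repair, had 11 of 13 above 0 and a median of 0.27. Its member Sfn (stratifin, an adaptor protein of stressed epithelium) stood at 63.6, 62.9 and 61.6 CPM in DE+PFD and 39.4, 28.7 and 41.8 CPM in DE, with no overlap. Of the mast cell, basophil and eosinophil list, 9 of 10 tested genes were below 0, with a median of -0.76. Of the 10, 2 were lower at an unadjusted p under 0.05 (1.61% of all genes). Mcpt4, a mast cell chymase, stood at 4.99, 2.94 and 5.76 CPM in DE+PFD and 23.3, 3.13 and 15.3 CPM in DE. DE 1 and DE 3 were again the high ones, and the list's median was -0.33 without DE 1. The 10 tested mitochondrially encoded genes were all below 0, 3 at an unadjusted p under 0.05, with a median of -0.81, and summed to 15700, 8598 and 21230 CPM in DE+PFD and 31550, 21530 and 18230 CPM in DE. DE+PFD 3 lay among the DE libraries, and without it the median was -1.45. All 26 cytosolic ribosomal protein genes were below 0 with a median of -0.31 and 0 at an unadjusted p under 0.05.

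In the clock list of 16 genes, 3 were at an unadjusted p under 0.05, in both directions. Nr1d1, the repressor REV-ERB alpha, stood at 3.10, 4.55 and 90.5 CPM in DE+PFD and 150.5, 254 and 175 CPM in DE, a log2 change of -2.33 ± 1.09. Dbp, a clock output factor, stood at 5.14, 13.9 and 19.5 CPM in DE+PFD and 29.9, 178 and 52.2 CPM in DE, a log2 change of -2.41 ± 1.09. Cry1, a repressor that peaks later in the cycle, stood at 43.5, 39.3 and 16.5 CPM in DE+PFD and 11.7, 8.21 and 9.67 CPM in DE, a log2 change of 1.46 ± 0.48. None of the 3 overlapped between the groups, and DE+PFD 1 and 2 were the extreme libraries for Nr1d1 and Cry1. Over all genes, 5.89% were higher and 5.28% lower without overlap. The labels do not state the hour at which each lung was taken.

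The remaining lists had medians between -0.29 for skeletal muscle and 0.21 for heat shock chaperones. The medians were -0.11 for cell cycle genes, 0.07 for the unfolded protein response, -0.02 for hypoxia and glycolysis, -0.16 for glucocorticoid response genes and -0.10 for p53 targets and senescence genes. They were -0.06 for MAP kinase and AP-1 genes, 0.08 for aryl hydrocarbon receptor and drug metabolism genes, 0.01 for mesothelium and -0.08 for globin and erythroid genes. At an unadjusted p under 0.05 in these lists stood Pdk4, Trp53 and Cdkn2a, all lower in DE+PFD (1.61% of all genes were). Trp53, which encodes p53, stood at 40.1, 51.4 and 46.7 CPM in DE+PFD and 75.1, 55.4 and 73.7 CPM in DE without overlap, a log2 change of -0.49 ± 0.18. Cdkn2a, the senescence gene of p16 and ARF, stood at 0.378, 0.535 and 0.761 CPM in DE+PFD and 2.74, 0.746 and 2.29 CPM in DE, a log2 change of -1.77 ± 0.67, again with DE 1 and DE 3 high. Pdk4, a switch from glucose to fat use and a glucocorticoid target, stood at 22.1, 3.48 and 13.9 CPM in DE+PFD and 112, 20.3 and 34.8 CPM in DE, a log2 change of -1.98 ± 0.81.

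The study added pirfenidone to 2 other exposed arms, which share no library with DE or DE+PFD. All RIC+DE libraries are from March, while RIC+DE+PFD 1 is from March and RIC+DE+PFD 2 and 3 are from October. DE+RIC 1 and 2 are from October and DE+RIC 3 is from November. DE+PFD+RIC 1 and 2 are from March and DE+PFD+RIC 3 is from October. Drug and date thus cannot be fully told apart in either arm, and the changes below rest on the batch term. After preconditioning (RIC+DE+PFD against RIC+DE) the median of the GTPase list was 0.35, and with perconditioning (DE+PFD+RIC against DE+RIC) it was -0.03, beside 1.42 without conditioning. The T cell medians were 0.18 and -0.14 beside -0.69, and the sinus list medians -0.30 and 0.17 beside -1.40. Gbp2 had log2 changes of 0.75 ± 0.50 and -0.20 ± 0.52 in the conditioned arms, and Cd209b 0.24 ± 0.88 and -0.05 ± 1.04. The adjusted p of the difference from the unconditioned arm was 0.0742 and 0.9999 for Cd209b and 0.537 and 0.9999 for Gbp2 (edgeR interaction terms). Cd209b did pass in other fits: in the preconditioning interaction with DESeq2, without DE 2 and without the low-count filter, and in the perconditioning interaction without DE 2 and without that filter. No gene passed in either interaction in edgeR, with 4763 genes (27.2%) at an unadjusted p under 0.05 for preconditioning and 470 (2.69%) for perconditioning. DESeq2 called 1912 and 8 genes in the same interactions. Without RIC+DE+PFD 1 the number at an unadjusted p under 0.05 for preconditioning was 792, and 0 genes passed in edgeR. Without the batch term edgeR called 1653.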

How the data were processed

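RNA-seq of mouse lung, in 24 libraries, was deposited as 1 table of read counts for 78275 genes. Per the labels' protocols, RNA was taken with TRIzol and strand-specific libraries were made from poly(A) RNA. Per the submitters' processing notes, the authors made the counts with fastp 0.23.4, STAR 2.7.11b and featureCounts on GRCm39, while the annotation release, strand setting and handling of multi-mapped reads were not stated there. Counts per library in the compared groups run from 3906807 to 14356904. Symbols came from GENCODE M21 IDs and matched 51486 genes, which hold 98.45% of counts.

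The counts were fitted with edgeR 4.0.16 (R 4.3.3; filterByExpr, TMM, quasi-likelihood test), with group and the month of the label's date as terms over all 24 libraries, and Benjamini-Hochberg adjustment over 17490 genes. The standard error is the log2 change divided by the root of F. CPM are TMM-scaled. The fit was tested on simulated data. For DE+PFD against DE it recovered 1.49% of 67 genes set to change 1.5-fold. The values were 20.9% of 67 genes at 2-fold and 80.3% of 66 genes at 4-fold, with 2 false calls. Apart from the set changes, the simulated counts had the same mean in all libraries, with no date effect, other group effect or outlying library. Recovery in the measured libraries may therefore be lower. Named are the 10 genes with the smallest p in each direction with a mean of at least 1 CPM (no predicted genes or receptor segments), the leading members of each list, and a set of readout genes, 1 of which is not reported here. Members and the 49 lists were chosen with earlier results of these data known. Lists are described by counts and medians, with no test. Replicate numbers did not pair the samples. DESeq2 1.42.0, other scalings, filters, batch terms, a replicate block and leaving out each library were tried, and limma 3.58.1 with quality weights and leaving out RIC+DE+PFD 1 were added after seeing the data. Promoter windows came from RefSeq.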

Additional observations from a re-analysis of the deposited data

How the results depend on the processing

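Against 0 genes past the threshold between DE+PFD and DE, DESeq2 called 15 and edgeR without a low-count filter 180, and leaving out 1 library called 0 to 13. DESeq2 and the unfiltered fit ran on 41345 genes, and the prior degrees of freedom of edgeR were infinite without the filter and 5.384 with it. The 13 came without DE 2. The other alternatives called 0, among them the replicate block with the batch term, the block without it, no batch term, October libraries alone and the 6 libraries alone. In the preconditioning interaction DESeq2 called 1912 genes, edgeR without the filter 2179, without the batch term 1653 and with the replicate block 6, and leaving out 1 library called 0 to 1. In the perconditioning interaction DESeq2 called 8, edgeR without the filter 164, the replicate block 0, and leaving out 1 library 0 to 2. The cause of these differences was not tested beyond the numbers of genes and degrees of freedom given. As a check of the pairing, the deviations of same-numbered DE and DE+PFD libraries correlated at 0.08, -0.02 and -0.01, and 1 of 3 libraries correlated best with its own number. Of the log2 changes of named genes under the alternatives, 1055 stayed within 1 SE of the main fit, 68 moved further and 43 passed the threshold. Of the list medians 825 stayed within 1 SD of the libraries' list values and 57 moved. Low counts limit Madcam1, Ifng and Il6, and Glycam1 in DE+PFD, where a few reads set the level.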
